A study of Mus musculus with 8 samples.

Results

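The granins and the enzymes that cut prohormones were examined in sorted gonadotropes, the cells of the anterior pituitary that secrete the gonadotropins LH and FSH. The 10 genes, *Chga*, *Chgb*, *Scg2*, *Scg3*, *Vgf*, *Scg5*, *Pcsk1n*, *Pcsk1*, *Pcsk2* and *Cpe*, were chosen by symbol, and each matched 1 of the 55523 entries of the deposited count table. RNA was sequenced from EGFP-positive cells that were sorted out of pituitaries of the Ad4BP-BAC-EGFP mouse, a line in which a bacterial artificial chromosome of the gene for NR5A1 (also named Ad4BP) carries EGFP. There were 4 female and 4 male samples of this 1 genotype, and no treatment was named. The age of the mice, and whether a sample came from 1 animal or from several, are not given in the sources used here, so p-values measure only the spread between these samples, which may be technical. Male replicate 1 was left out of the study's own comparisons. It is shown apart here, and males means replicates 2 to 4 unless stated.

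Endocrine cells store their hormones in dense core granules, and granins are acidic proteins that aggregate with the hormones and help to form and sort these granules. Prohormone convertases cut precursors after pairs of basic residues inside the granule, and a carboxypeptidase then removes the basic residues left at the end. In gonadotropes the stored hormones are glycoprotein heterodimers, and secretogranin II, the product of *Scg2*, is known to be packed with LH.

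The total count was between 18774578 and 31302588 per sample. The floor of 3 counts stood at 0.0918 to 0.147 CPM (counts scaled to library size with TMM factors, the unit of all levels below), and it covers counting error only because amplified reads are not independent molecules. *Xist* was between 214 and 417 CPM in the females and at most 1.20 CPM in the males, whereas *Ddx3y* was between 151 and 183 CPM in the males and at most 0.367 CPM in the females. The 5 gonadotrope markers (*Lhb*, *Fshb*, *Cga*, *Gnrhr* and *Nr5a1*) were present in each sample and summed to between 21516 and 34770 CPM in the females and between 67400 and 76488 CPM in the males. *Fshb* and *Cga* made up most of the sum in the males. In the females *Cga* (mean 18075 CPM) was the highest of the 5, and *Lhb* (5399 CPM) stood above *Fshb* (2911 CPM). Of the 5 markers 1, *Fshb*, was higher in each male than in each female (11.6% of all entries), and 1, *Nr5a1*, was lower (10.9% of all entries). *Nr5a1* itself was 590 to 794 CPM in the males and 863 to 1263 CPM in the females (log2 fold change −0.61, adjusted p = 0.130 from edgeR). In male replicate 1 *Ddx3y* was 196 CPM and *Xist* 3.69 CPM, but *Nr5a1* stood at 16.4 CPM, below each of the other 7 samples. Hormone genes of other pituitary cells were also high. *Gh*, of somatotropes, was between 12410 and 58207 CPM in the females and between 64444 and 143693 CPM in the males. *Pomc*, of corticotropes and melanotropes and a classical substrate of both convertases, was between 12385 and 22159 CPM in the females and between 10061 and 28871 CPM in the males. The libraries also showed steps in single genes, which concern *Scg2* and *Scg3* below. Of the 1543 entries with a mean of at least 100 CPM, 54 (3.5%) had a highest sample more than 100-fold above the lowest. Not all of these are steps within a sex. The 54 include *Xist*, *Tsix* and *Grem1*, which differed between the sexes and spanned at most 3.04-fold within the females.

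The promoters of 5 members, those with the clearest differences between the sexes or, for *Scg2*, between samples, are printed from RefSeq (GRCm38.p6), as the 200 bases before the RefSeq start site, 5′ to 3′. They are shown because several members carry the cyclic AMP response element (CRE), the site bound by CREB proteins. Capitals mark the full CRE, TGACGTCA, and its core TGACG or CGTCA, which lies inside each full site.
Chgb (chr2:132781442-132781641, plus strand): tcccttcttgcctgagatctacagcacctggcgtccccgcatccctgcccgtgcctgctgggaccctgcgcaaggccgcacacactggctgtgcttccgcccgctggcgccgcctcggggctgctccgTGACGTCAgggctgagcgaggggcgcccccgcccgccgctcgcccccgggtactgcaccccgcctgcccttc
Scg5 (chr2:113829092-113829291, minus strand): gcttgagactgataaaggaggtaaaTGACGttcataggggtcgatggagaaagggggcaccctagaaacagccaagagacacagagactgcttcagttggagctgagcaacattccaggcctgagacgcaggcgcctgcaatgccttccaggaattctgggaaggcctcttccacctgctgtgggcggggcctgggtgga
Chga (chr12:102554741-102554940, plus strand): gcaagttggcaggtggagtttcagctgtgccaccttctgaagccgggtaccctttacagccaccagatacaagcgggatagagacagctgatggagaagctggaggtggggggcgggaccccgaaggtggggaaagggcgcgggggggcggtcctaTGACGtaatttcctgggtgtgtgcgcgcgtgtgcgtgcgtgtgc
Pcsk1 (chr13:75089657-75089856, plus strand): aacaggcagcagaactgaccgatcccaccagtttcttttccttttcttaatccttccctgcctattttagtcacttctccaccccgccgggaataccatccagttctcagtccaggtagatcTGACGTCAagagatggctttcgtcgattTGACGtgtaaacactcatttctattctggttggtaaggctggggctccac
Scg2 (chr1:79440027-79440226, minus strand): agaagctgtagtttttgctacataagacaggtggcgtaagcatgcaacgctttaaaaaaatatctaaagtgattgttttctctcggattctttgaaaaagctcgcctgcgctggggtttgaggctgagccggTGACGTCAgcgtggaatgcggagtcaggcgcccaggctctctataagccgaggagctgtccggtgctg

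Of the 10 members, 8 had a promoter in the RefSeq table. *Vgf* and *Cpe* had none. In the 250 bases before the start, searched on both strands, the full CRE was found in 3 of the 8, *Chgb*, *Scg2* and *Pcsk1*, and in 1.55% of all 32851 promoters of the same length. Its first base lay 72 bases before the start in *Chgb*, 68 in *Scg2* and 78 in *Pcsk1*. The core was found in 7 of the 8, all but *Pcsk1n*, and in 17.8% of all promoters. In *Chga* it began 44 bases before the start, and in *Scg5* 175 bases before it. The letters CAAGGTCA, a binding site of NR5A1, were in 0 of the 8 windows and in 1.33% of all promoters. These matches describe the letters in the windows and were not tested for binding.

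Levels of different genes were compared as CPM per kb of exon in the GENCODE M21 annotation. In the males *Chga* (2032 ± 587, SD, n = 3) and *Chgb* (2016 ± 310) stood highest and did not differ beyond their spread. *Scg5* followed at 1610 ± 133 CPM per kb. Its highest sample (1694) was below the lowest of *Chgb* (1777) but above the lowest of *Chga* (1428). *Cpe* (206), *Pcsk1n* (191), *Pcsk1* (156) and *Scg3* (134) came next, and each overlapped its neighbour in this order. *Scg2* (43.6) was apart from the group above it and from *Pcsk2* (29.9) below it. *Vgf*, whose product is cut into several neuropeptides, was lowest at 0.781 CPM per kb.

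In the females *Scg5* (930 ± 26.2 CPM per kb, SD, n = 4), *Chga* (833 ± 332) and *Chgb* (721 ± 104) again stood high, and each overlapped its neighbour. *Cpe* (303) and *Pcsk1n* (241) overlapped each other below them, *Scg3* (108) stood alone, and *Pcsk1* (37.5) overlapped *Pcsk2* (26.5). *Vgf* was at 1.51 CPM per kb. *Scg2* had no single level in the females, with samples from 8.04 to 3602 CPM per kb. By their mean over the 7 samples, the 8 members other than *Vgf* and *Scg2* were at or above the 94.5 percentile of the 32142 entries with a count and a length, and *Vgf* was at the 55.4 percentile. No percentile is given for *Scg2*, whose mean rests on female replicates 1 and 3. With the longest transcript in place of the exon union, *Scg5* moved above *Chgb* in the males and *Chga* above *Scg5* in the females, and *Pcsk2* moved above *Scg2* in the males and above *Pcsk1* in the females.

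The sexes were then compared with edgeR's quasi-likelihood test over the whole table, with Benjamini-Hochberg adjustment over the 20152 entries tested. *Chgb* and *Scg5* were higher in the males, by 2.80-fold and 1.73-fold in mean CPM, and 0 members passed in the other direction. This is 2 of the 10 members past the adjusted threshold of 0.05, against 2.34% of all entries tested in either direction, 0.983% with males higher and 1.35% with females higher. At an unadjusted p under 0.05 there were 6 of the 10 members, 4 higher in males and 2, *Scg2* and *Cpe*, higher in females, against 19.9% of all entries. DESeq2 called 4 members higher in males (*Chga*, *Chgb*, *Scg5* and *Pcsk1*) and 1, *Scg2*, higher in females, against 7.16% of its entries in either direction, 3.29% with males higher and 3.87% with females higher. The direction of *Scg2* rests on female replicates 1 and 3, since the other 2 females, at 20.2 and 21.3 CPM, lay below each male (90.0 to 139.9 CPM). The samples of the sexes did not overlap for 5 members, *Chga*, *Chgb*, *Scg5* and *Pcsk1* with the males higher and *Cpe* with the females higher, and for 22.5% of all entries (11.6% with the males higher and 10.9% with the females higher). The median log2 fold change, males over females, came to 0.22 over the 10 members and −0.03 over all entries. In bulk RNA of sorted cells, fewer cells of a type and less RNA per cell cannot be told apart.

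**Figure D1:**
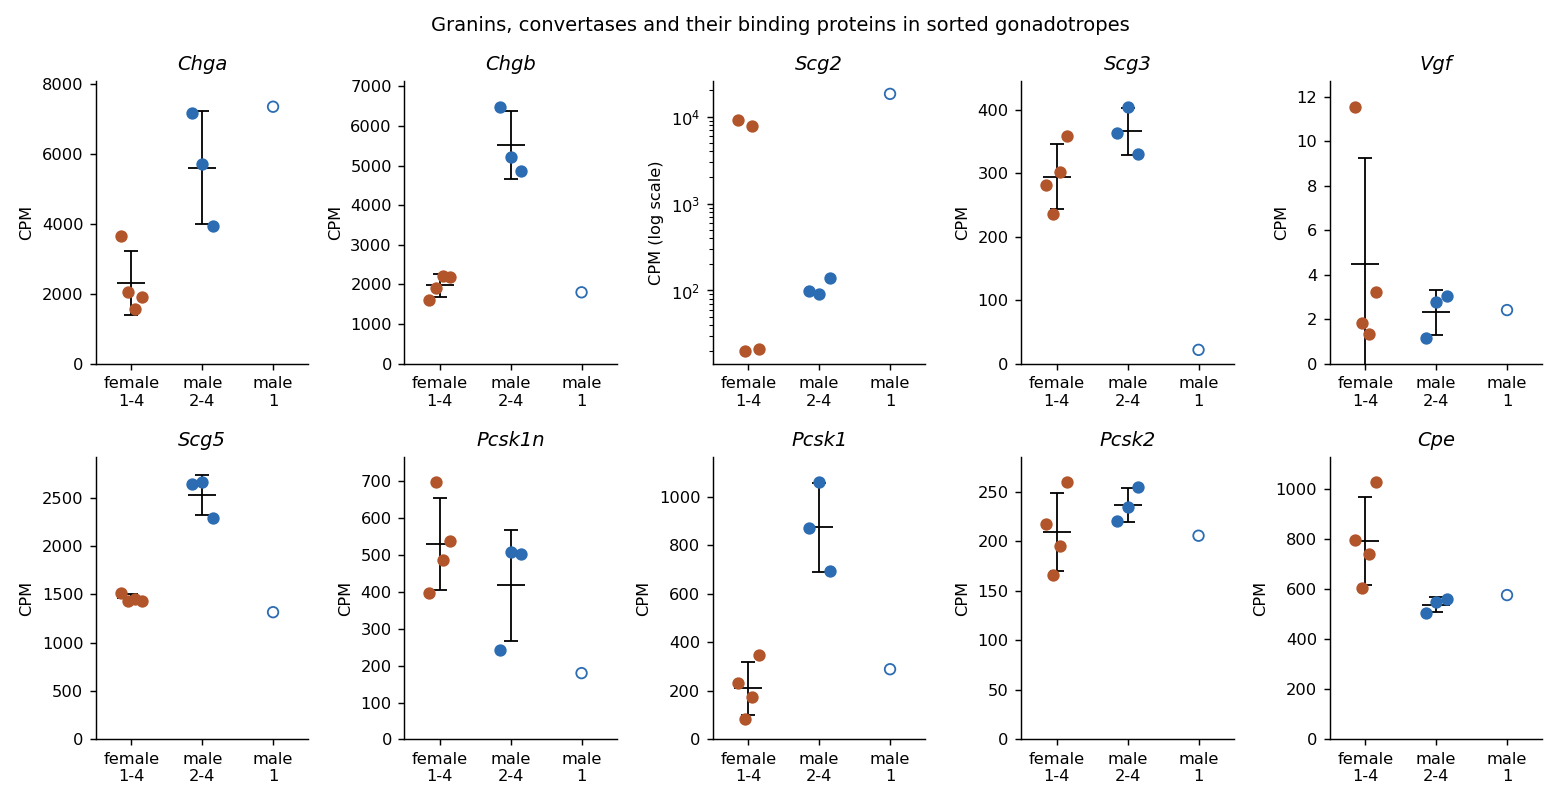
CPM of each member in the 4 female samples, in male replicates 2 to 4 and, as an open circle, in male replicate 1. Horizontal marks are the mean and bars the SD between samples, the lower bar of *Vgf* in females being cut at 0. *Scg2*, on a log axis, has no mean drawn because its female samples lie at 20.2 to 21.3 CPM and at 7750 to 9058 CPM.

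*Chgb* encodes chromogranin B, a main soluble granin of dense core granules, and lies on chromosome 2 from 132781278 to 132795079 of GRCm38 (ENSMUSG00000027350.8). It was 6486, 5218 and 4869 CPM in male replicates 2, 3 and 4 and 1601, 1902, 2206 and 2190 CPM in female replicates 1 to 4. Each male was above each female, and the lowest male was above the highest female by more than the SD of either sex (851 CPM in males, 285 CPM in females). On the log2 scale the males exceeded the females by 1.46 (standard error 0.17, adjusted p = 0.0163 in edgeR). The two-sided exact permutation test on log2(CPM + 1) gave p = 0.0286, the smallest that the 35 splits of 3 against 4 allow. When each of the 7 samples was left out in turn, edgeR gave adjusted p values from 0.0295 to 0.0493. *Chgb* in male replicate 1 was 1802 CPM, inside the female range, and with that sample in the fit the adjusted p from edgeR was 0.261.

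*Chga* encodes chromogranin A, the granin used as a general marker of endocrine cells, and lies on chromosome 12 from 102554969 to 102565028. It was 7169, 5693 and 3937 CPM in male replicates 2 to 4 and 3634, 2061, 1575 and 1917 CPM in female replicates 1 to 4. The highest female, replicate 1, came close to the lowest male, replicate 4, and the groups did not overlap. With a log2 fold change of 1.26 (standard error 0.33), *Chga* did not pass the threshold (adjusted p = 0.0921 from edgeR). The exact permutation test gave p = 0.0571. *Chga* in male replicate 1 was 7341 CPM, the highest of the 8 samples.

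*Scg3* encodes secretogranin III, which binds chromogranin A and cholesterol-rich granule membrane, and lies on chromosome 9 from 75643189 to 75684056. It was 362, 404 and 330 CPM in male replicates 2 to 4 and 281, 236, 302 and 359 CPM in female replicates 1 to 4. These ranges overlapped, and the log2 fold change was 0.29 (standard error 0.17, adjusted p = 0.402 from edgeR). In male replicate 1 *Scg3* was 21.8 CPM, from 497 counts, and the lowest of the other 7 samples was 10.8-fold above it.

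*Vgf*, on chromosome 5 from 137026392 to 137033351, was low in each sample. It was 1.17, 2.77 and 3.03 CPM in male replicates 2 to 4, from 30 to 74 counts, and 1.82, 1.35 and 3.20 CPM in female replicates 2 to 4. Female replicate 1, at 11.6 CPM from 270 counts, stood above the rest, and male replicate 1 was 2.41 CPM. For *Vgf* the log2 fold change was −0.97 (standard error 0.81, adjusted p = 0.584 from edgeR), and without female replicate 1 it was 0.13.

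*Scg2* differed by large steps within the females. It encodes secretogranin II and lies on chromosome 1 from 79434669 to 79440120 (ENSMUSG00000050711.7) and overlaps no other annotated gene. It was 9058 CPM in female replicate 1, 7750 CPM in female replicate 3 and 18253 CPM in male replicate 1, the last from 415932 counts. It was 20.2 and 21.3 CPM in female replicates 2 and 4, from 412 and 492 counts, and 99.1, 90.0 and 139.9 CPM in male replicates 2 to 4. The 3 high samples and the 5 low samples were separated by at least 55.4-fold, and the females alone spanned 448-fold. The fitted log2 fold change, −5.27, had a standard error of 2.24 (adjusted p = 0.251 from edgeR), and it was 0.14 when male replicate 1 was included. A mean of the females, 4213 CPM with an SD of 4870 CPM, lies far from each female sample.

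Counts of 4 annotated genes near *Scg2*, which do not include each of its neighbours, were low in the 8 samples. *Ap1s3* had 82 to 172 counts, *Gm5830* had 32 to 105, *Gm19027* had at most 1, and *Gm24160* had 0. Steps of this size were also seen outside the granins. Of the 1543 entries at a mean of at least 100 CPM, 22 (1.43%) spanned more than 100-fold within the females, and *Scg2* ranked 11 in its span over the 8 samples. The 54 entries that spanned more than 100-fold over the 8 samples include genes that most cells use, of which *Set* and *Capzb* are named here after their values were seen. *Set*, which encodes a histone chaperone, was 4.12 CPM in female replicate 2, 7.27 in female replicate 4 and 6.82 in male replicate 3, whereas the other samples had 400 to 578 CPM. *Capzb*, which encodes a subunit of the actin capping protein, had 1 count in male replicate 2, under the floor, was 0.449 CPM in male replicate 3 and had 181 to 265 CPM elsewhere.

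**Figure D2:**
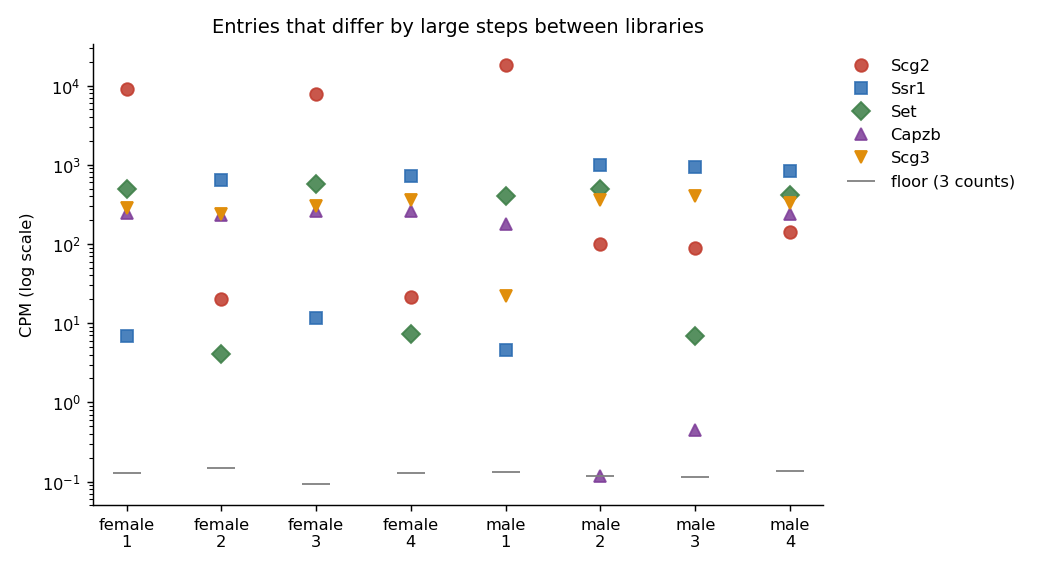
CPM (log axis) of *Scg2*, *Scg3* and 3 entries chosen after their values were seen, *Ssr1*, *Set* and *Capzb*, in each of the 8 samples. Grey marks are the floor of 3 counts, at which values below it are drawn. Each gene is at a similar level in some samples and lower by a large step in others, and the low samples differ from gene to gene.

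The low *Scg3* of male replicate 1 was also a step, seen in 1 sample. In that sample 17 of the 1543 entries (1.1%) were more than 10-fold below each of the other 7 samples, *Scg3* and *Nr5a1* (16.4 CPM) among them. In each of the other 7 samples there were between 5 and 11 such entries (0.324% to 0.713%), none of them a member. Whether a low value stands for little RNA of the gene or for reads that were not counted for its entry cannot be told apart from the table, so the low *Scg2* and *Scg3* values may not be expression levels. The cause of the steps was not tested.

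*Scg5* encodes 7B2, the chaperone that PC2, the product of *Pcsk2*, needs to mature, and lies on chromosome 2 from 113776362 to 113829121 (ENSMUSG00000023236.7). It was 2636, 2657 and 2287 CPM in male replicates 2 to 4 and 1519, 1433, 1452 and 1431 CPM in female replicates 1 to 4. The female samples differed by an SD of 41.2 CPM, 2.82% of their mean, and each male was above each of them. *Scg5* had a log2 fold change of 0.77 (standard error 0.11, adjusted p = 0.0275 from edgeR) and p = 0.0286 in the exact permutation test. In edgeR the adjusted p stayed under 0.05 without female replicate 1 or male replicate 4 and was between 0.0560 and 0.0976 without any 1 of the other 5 samples. In male replicate 1 *Scg5* was 1316 CPM, below each of the other 7 samples, and with that sample in the fit the adjusted p from edgeR was 0.410.

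*Pcsk1n* encodes proSAAS, an inhibitor of the convertase PC1/3, and lies on the X chromosome from 7919822 to 7924410, where it shares exonic sequence with *Eras*, a gene of the opposite strand, and without strand their reads there cannot be told apart. It was 244, 507 and 503 CPM in male replicates 2 to 4 and 398, 697, 487 and 537 CPM in female replicates 1 to 4. The ranges overlapped, male replicate 2 being the lowest of the 7, and male replicate 1 was lower still at 180 CPM. Its log2 fold change was −0.37 (standard error 0.31, adjusted p = 0.585 from edgeR).

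Of the enzymes among the members, *Pcsk1*, *Pcsk2* and *Cpe*, *Pcsk1* differed most between the sexes but did not pass the threshold. It encodes PC1/3, the convertase that makes the first cuts in many prohormones, and lies on chromosome 13 from 75089826 to 75134861. It was 872, 1060 and 694 CPM in male replicates 2 to 4 and 231, 84.9, 176 and 350 CPM in female replicates 1 to 4. Each male was above each female, and the mean of the males was 4.16 times that of the females. Its log2 fold change was 2.03 (standard error 0.44, adjusted p = 0.0633 from edgeR), and the exact permutation test gave p = 0.0286. *Pcsk1* in male replicate 1 was 289 CPM, inside the female range.

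*Pcsk2* encodes PC2, which makes later cuts such as those that yield melanocyte-stimulating hormone from POMC. It lies on chromosome 2 from 143546156 to 143816285, where the antisense genes *Pcsk2os1* and *Pcsk2os2* overlap its exons, so without strand reads of these genes cannot be told apart. It varied least of the members over the 8 samples, from 166 to 259 CPM. The males were at 220, 235 and 254 CPM and the females at 217, 166, 195 and 259 CPM, so that the male range lay inside the female range, and male replicate 1 was at 206 CPM. The log2 fold change was 0.15 (standard error 0.17, adjusted p = 0.702 from edgeR), and it was −0.061 when libraries were scaled by their totals alone.

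*Cpe* encodes carboxypeptidase E, which trims the basic residues that convertases leave, and lies on chromosome 8 from 64592542 to 64693054. It was 503, 550 and 558 CPM in male replicates 2 to 4 and 797, 605, 741 and 1025 CPM in female replicates 1 to 4, with each male below each female. The log2 fold change was −0.58 (standard error 0.19), and the adjusted p of 0.150 from edgeR was not past the threshold. Male replicate 1, at 576 CPM, was also below each female.

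**Figure D3:**
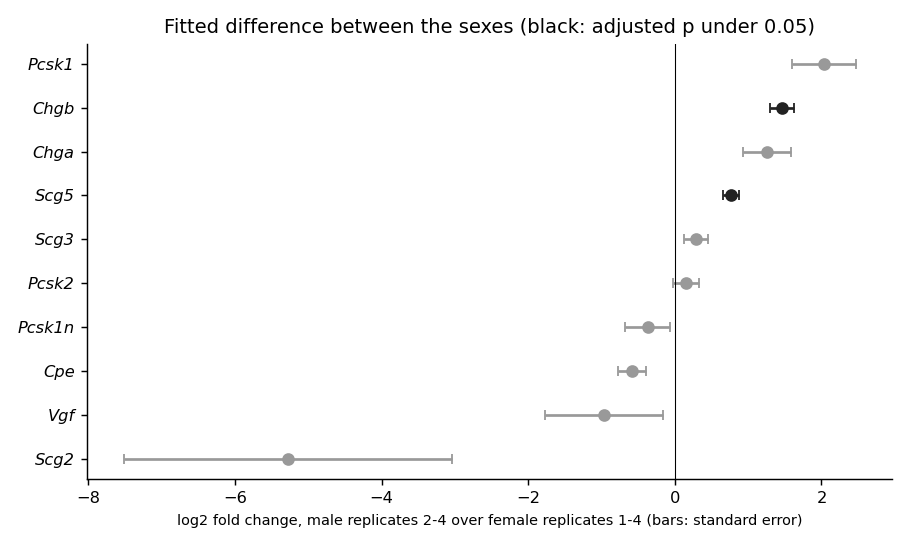
Log2 fold change of males (replicates 2 to 4) over females for each member, with its standard error, from edgeR's quasi-likelihood fit. *Chgb* and *Scg5*, in black, are past the adjusted threshold of 0.05, and the standard error of *Scg2*, 2.24, is the widest of the 10.

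Ratios of counts between members of 1 library do not depend on how libraries are scaled, and they are given as a description with no test. *Scg5* had 8.99 to 11.97 counts for each count of *Pcsk2* in the males and 5.52 to 8.64 in the females. *Pcsk1* had 2.73 to 4.52 counts for each count of *Pcsk2* in the males and 0.512 to 1.35 in the females. *Pcsk1n* had 0.279 to 0.726 counts for each count of *Pcsk1* in the males and 1.53 to 8.21 in the females. These are ratios of counts, and the exons of *Pcsk1* are longer (5604 bases against 2193), so that per kb the mean of *Pcsk1n* was above that of *Pcsk1* in the males too (191 against 156 CPM per kb). The sexes did not overlap in these 3 ratios. Each of them holds *Pcsk1* or *Scg5*, which did not overlap by themselves, so the ratios partly repeat the single genes. Of single entries 22.5% did not overlap, and no such share was computed for ratios. The ratio of *Chga* to *Chgb* did overlap, at 0.808 to 1.11 in the males and 0.714 to 2.27 in the females. That of *Scg2* to *Scg3* also overlapped, at 0.223 to 0.424 in the males and 0.0593 to 32.3 in the females. In male replicate 1 the ratio of *Pcsk1n* to *Pcsk1* was 0.621, within the range of the males. Its ratio of *Scg5* to *Pcsk2* was 6.40, inside the female range, and that of *Pcsk1* to *Pcsk2* was 1.41, just above the females and below each of the males. Its ratio of *Chga* to *Chgb*, 4.07, was above each of the other 7 samples.

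**Figure D4:**
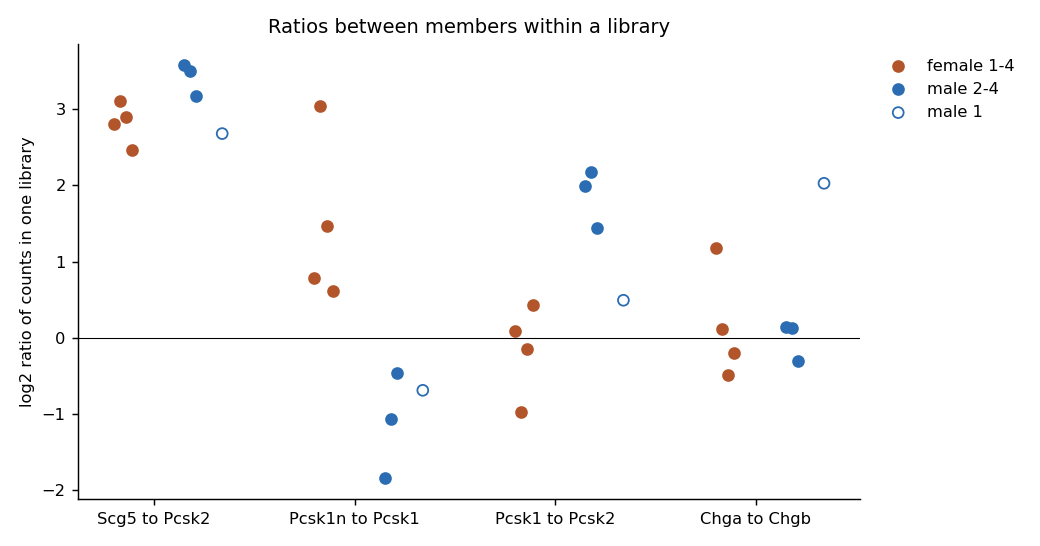
Log2 ratio of the counts of 2 members in the same library, for the 4 females, for male replicates 2 to 4 and, as an open circle, for male replicate 1. The males lie above the females for *Scg5* to *Pcsk2* and *Pcsk1* to *Pcsk2*, below them for *Pcsk1n* to *Pcsk1*, and among them for *Chga* to *Chgb*.

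Cell-type markers and hormones that moved with the sexes are given here beside *Chgb*, *Scg5*, *Pcsk1* and *Chga*. *Fshb* was between 17066 and 30664 CPM in the males and between 1398 and 5708 CPM in the females (log2 fold change 3.13, standard error 0.56, adjusted p = 0.0449 from edgeR), and it was the only one of 7 hormone genes past the threshold in edgeR, against 2.34% of all entries in either direction and 0.983% with males higher. At an unadjusted p under 0.05 there were 4 (*Cga*, *Lhb*, *Fshb* and *Tshb*), against 19.9%, and DESeq2 called 2, *Fshb* and *Tshb*, against 3.29% of its entries with males higher. The sexes did not overlap for 3 of the 7, *Fshb*, *Gh* and *Tshb*, with males higher as for 11.6% of all entries, the last at 234 to 335 CPM in males against 20.9 to 83.3 CPM in females. All 7 fold changes were above 0, with a median log2 value of 0.90 against −0.03 over all entries. Summed over 3 markers, somatotrope genes made up 64454 to 143757 CPM in the males, and 12413 to 58216 CPM in the females, nearly all of it *Gh*, and *Ghsr* was at 0 in some samples. The 3 thyrotrope markers summed to 276 to 378 CPM in males against 84.7 to 223 CPM in females, but *Dio2* went the other way, with a lowest female of 63.2 CPM that was above each male, while *Tshb* and *Trhr* were higher in each male than in each female. The 3 stem cell markers summed to 140 to 172 CPM in males, below the 246 to 383 CPM of females, and 2 of the 3, *Sox2* and *Sox9*, were lower in each male than in each female, as were 10.9% of all entries. *Sox9* passed the same threshold as *Chgb* and *Scg5* (log2 fold change −1.02, adjusted p = 0.0417 from edgeR). The 4 stromal markers summed to 84.95 to 98.1 CPM in males against 99.3 to 146 CPM in females, but 1 of the 4, *Col1a1*, was lower in each male than in each female (10.9% of all entries), and *Dcn*, *Col1a2* and *Pdgfrb* overlapped. Sums for lactotropes, for corticotropes and melanotropes, for pituicytes and for endothelial, erythroid and immune cells overlapped between the sexes. Of the 5 erythroid markers 1, *Hbb-bs*, was lower in each male (20.7 to 52.9 CPM) than in each female (62.8 to 216 CPM), as were 10.9% of all entries. In male replicate 1 *Chgb* and *Pcsk1* were inside the female range, *Scg5* was below it and *Chga* was above each of the other 7 samples. In that sample the gonadotrope and somatotrope sums were 28571 and 30309 CPM, inside the female ranges. The part of these cells in the differences was not tested.

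Among 21 other enzymes of peptide processing, 20 were tested, and edgeR called 3 with males higher and 0 with females higher, against 0.983% and 1.35% of all entries. At an unadjusted p under 0.05 there were 3 and 1, against 19.9% of all entries in either direction. DESeq2 also called 3 and 1, the latter being *Pcsk5*, against 3.29% and 3.87% of its entries. The median log2 fold change of the list was 0.07. *Qpct*, which encodes glutaminyl cyclase and closes the amino end of some peptides, was 375 ± 86.3 CPM (SD, n = 3) in males and 128 ± 23.6 CPM (SD, n = 4) in females, and its log2 fold change was 1.53 (standard error 0.21, adjusted p = 0.0276 from edgeR). *Cpm*, which encodes a membrane carboxypeptidase, was 25.7 ± 13.9 CPM in males and 4.99 ± 1.76 CPM in females (log2 fold change 2.34, standard error 0.43, adjusted p = 0.0467 from edgeR). *Ctsl*, which encodes the protease cathepsin L, was 115 ± 9.87 CPM in males and 63.6 ± 9.32 CPM in females (log2 fold change 0.83, standard error 0.16, adjusted p = 0.0494 from edgeR). The most abundant enzymes of the list besides *Qpct* were *Ctsb* and *Ece1*, with log2 fold changes of 0.17 and 0.12 (adjusted p = 0.613 and 0.679 from edgeR). *Pam*, which encodes the enzyme that amidates peptides, was 143 ± 27.9 CPM in males and 74.2 ± 46.5 CPM in females, from 9.38 CPM in female replicate 1 to 120 CPM, so that the groups overlapped (adjusted p = 0.530 from edgeR). *Pam* has 2 entries in the table, of which the higher was used.

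Of 25 other genes of dense core granules and their release, all of which were tested, edgeR called 1 higher in males and 1 higher in females, against the same 0.983% and 1.35% of all entries, with a median log2 fold change of 0.05. At an unadjusted p under 0.05 there were 6 and 4, against 19.9% in either direction, and DESeq2 called 3 and 1, against 3.29% and 3.87%. *Syt4*, which encodes a synaptotagmin of secretory vesicles, was 1914 ± 128 CPM in males and 940 ± 137 CPM in females (log2 fold change 1.001, standard error 0.14, adjusted p = 0.0293 from edgeR). *Baiap3*, which encodes a protein of dense core vesicle recycling, was 43.97 ± 8.27 CPM in males and 113 ± 23.3 CPM in females (log2 fold change −1.38, standard error 0.23, adjusted p = 0.0378 from edgeR). *Resp18*, which encodes a luminal granule protein of endocrine cells, was 1289 ± 251 CPM in males and 760 ± 113 CPM in females, with an adjusted p of 0.0796 from edgeR. *Atp6ap2*, which encodes an accessory protein of the proton pump, was 480 ± 73.8 CPM in males and 322 ± 46.3 CPM in females, with an adjusted p of 0.133 from edgeR. The sexes did not overlap for these 4 genes, as for 22.5% of all entries. Of the 5 genes called in both lists, *Qpct* stayed past the threshold without each of 2 samples, *Syt4* without 1, and *Baiap3*, *Cpm* and *Ctsl* without 0 of the 7 samples left out in turn.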

How the data were processed

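The authors trimmed reads with cutadapt, mapped them to mm10 (GRCm38) with STAR and counted them with featureCounts, and deposited raw counts per entry in 1 table (tools and build also per the submitters' processing notes). Of its 55523 entries, 28933 carry MSTRG locus names, a form that transcript assembly gives and that the methods do not describe. Counting used default parameters, which in featureCounts do not use strand. The annotation is not given in the sources used here. Libraries were made with a low-input kit.

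Members were matched by symbol. Counts were tested with edgeR 4.0.16 (R 4.3.3), with TMM factors, the filter filterByExpr and the quasi-likelihood test, comparing male replicates 2 to 4 with the 4 females, and p-values were adjusted by Benjamini-Hochberg, with calls at 0.05. Each standard error is the absolute log2 fold change divided by the square root of F. The exact permutation test used log2(CPM + 1). DESeq2 1.42.0, other scalings and filters, counts summed by symbol or locus, all 8 samples, a replicate block and leaving out each sample were alternatives. Python 3.11.15, scipy 1.17.1, pandas 2.3.3 and numpy 2.4.6 were used for the rest. Lengths and positions came from GENCODE M21, and promoters from RefSeq.

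Total counts were between 18774578 and 31302588 per sample, so that the floor of 3 counts lay at 0.0918 to 0.147 CPM. Both tools were tried on simulated counts of this comparison, with a log2 change of 3 and a spread taken from edgeR's own estimates. There edgeR recovered 73.8% of 191 changed entries among 19532 tested, with 3.42% of calls false. DESeq2 recovered 84.3% of 198 among 30849, with 36.00% false. The members called by edgeR changed by less, 1.46 for *Chgb* and 0.77 for *Scg5*. These shares therefore do not give the recovery or the false share of the calls reported here.

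Members and lists were chosen with earlier results of these data known. The genes named were the 10 members, each gene of the enzyme and granule lists past the threshold, the 3 with the highest mean CPM in each list, 7 hormone genes, and *Nr5a1*, *Xist* and *Ddx3y*. Others were named where a result turned on them.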

Additional observations from a re-analysis of the deposited data

Results flagged for a closer look

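In groups of 4 samples, 6 of 136 groups examined held a sample whose gap to the nearest other sample was larger than Dixon's 95% limit allows. Chance flags about 1 group in 20, which comes to 6.8 groups, so 6 is no more than chance gives. The flagged samples are only described. *Scg2* reached 18253 CPM in male replicate 1, whereas the other males had 90.0 to 139.9 CPM. The log2 ratio of *Scg2* to *Scg3* was 9.71 in that sample and −2.17 to −1.24 in the other males, a ratio to which its low *Scg3* also contributes. *Furin*, which encodes a convertase of the Golgi, was 36.7 CPM in female replicate 3 and 2.01 to 3.51 CPM in the other females. In males it was 43.7 CPM in replicate 2 against 0.734 to 7.37 CPM in the rest. *Cadps2*, which encodes a priming factor of dense core vesicles, was 44.9 CPM in female replicate 3 and 6.93 to 8.44 CPM in the other females. *Prl* was 18234 CPM in female replicate 2 and 4677 to 6918 CPM in the other females.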

How the results depend on the processing

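The main edgeR fit called 471 entries, 2 members and 5 genes of the enzyme and granule lists. DESeq2 called 2235, 5 and 8. Scaling by library size alone called 808 entries and 1 member, *Chgb*, moved the median log2 fold change from −0.03 to −0.24 and the share of calls higher in males from 42.0% to 16.5%, and gave *Pcsk2* −0.061. No filter beyond 1 count gave 177 entries and 2 list genes. With all 8 samples there were 67 entries, 0 members and 0 list genes (1997, 5 and 9 at an unadjusted p under 0.05 in edgeR), and *Scg2* was 0.14 and *Scg3* −0.075. With the replicate block there were 0, 0 and 0 (2954, 5 and 12 unadjusted in edgeR), and *Scg2* was 0.89 and *Vgf* 0.087. The replicate numbers did not pair the samples, with correlations of −0.0179, −0.0113 and 0.00245 between same-numbered samples. Leaving out 1 sample gave 88 to 171 entries, 1 to 2 members and 0 to 2 list genes, and *Vgf* ranged from −1.25 to 0.13, the latter without female replicate 1. Mean log2 ratios over all 4 males were 0.50 for *Chga* to *Chgb* and 1.11 for *Scg2* to *Scg3*. Over 15 alternatives *Chgb* had log2 fold changes of 1.22 to 1.55 and adjusted p of 4.84e-10 to 0.261, and *Scg5* 0.56 to 0.84 and 8.15e-09 to 0.410. Summing by symbol or locus, or DESeq2's size factors, changed no member's call. The causes were not tested. *Vgf* had the fewest counts of the members, 30 to 270 per sample.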

Other observations

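Female replicates 1 and 3 and male replicate 1 were picked because *Scg2* was high in them, so *Scg2* itself was bound to show this pattern. Of 10522 entries with a mean of at least 10 CPM, no other was more than 10-fold higher in each of these 3 samples than in each of the other 5. *Ssr1*, which encodes a subunit of the translocon-associated complex of the endoplasmic reticulum, was the only one more than 10-fold lower in the same 3 samples. It was 6.81, 11.7 and 4.56 CPM there and between 645 and 998 CPM in the others. Other sets of 3 samples were not searched, and a link between *Scg2* and *Ssr1* was not tested.

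*Grem1*, which encodes a secreted antagonist of bone morphogenetic proteins, lies next to *Scg5* on one side, 17716 bases away, and *Arhgap11a* lies on the other, 2371 bases away. It was 267 to 344 CPM in male replicates 2 to 4, 89.4 CPM in male replicate 1 and at most 1.04 CPM in each female. *Scg5* differed between the same groups by 1.73-fold in mean CPM.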
